A study of Homo sapiens with 15 samples.

Results

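Collagen genes were described across 15 RNA-sequencing libraries of IMR90, a widely used cell line of fibroblasts from human fetal lung. Members were the genes of the count table whose symbol is COL, a number, A and a number with nothing after it, which gave 44 of 57736 genes in 9 structural classes. Of these, 35 passed the filter on low counts and were tested. The other 9 were COL2A1, COL9A1, COL9A3, COL20A1, COL4A3, COL6A5, COL6A6, COL23A1 and COL26A1. None of the 9 reached more than 6 counts in any library, and COL23A1 was at 0 in all 15.

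Collagens are secreted or membrane-bound proteins in which 3 chains wind into a triple helix, with glycine recurring at a fixed interval along each chain. The chains are folded and hydroxylated in the endoplasmic reticulum, which needs vitamin C and dedicated enzymes. Outside the cell they are trimmed, assembled and crosslinked. Fibrillar collagens form the banded fibrils that give lung tissue its tensile strength, FACIT collagens sit on fibril surfaces, type IV collagens form the sheet of basement membranes and type VI collagens form beaded filaments around cells. Fibroblasts are the main source of fibrillar collagens in connective tissue.

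The 5 groups of 3 libraries were growing cells under the control condition (growing control), senescent cells under the control condition (senescent control), senescent cells carrying a short hairpin RNA against TXNRD1 (shTXNRD1), senescent cells given the solvent DMSO, and senescent cells given TRi-1, a small-molecule inhibitor of the TXNRD1 protein. TXNRD1 is the cytosolic thioredoxin reductase, an enzyme that keeps thioredoxin reduced. The inducer of senescence, the dose and duration of TRi-1, the control of the hairpin and the origin of the replicates (separate cultures or not) are not stated in the labels. What the p-values measure is then only the spread between these samples, which may be technical. Senescence and its inducer cannot be told apart here. In bulk RNA, fewer cells expressing a gene and less RNA of it per cell cannot be told apart either.

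Library totals ran from 18033076 to 28909046 counts. TXNRD1 itself was at 1779, 1603 and 1525 CPM (counts scaled to library size by TMM) in the growing control and 506, 511 and 528 CPM in the senescent control. It was at 21, 21.6 and 25.3 CPM in the shTXNRD1 libraries, and at 430, 399 and 395 CPM with DMSO against 430, 420 and 443 CPM with TRi-1, which targets the protein. TXNRD1 was called lower in senescence (log2 change -1.67 ± 0.07, SE) and lower with DMSO than in the senescent control (-0.34 ± 0.07). All 10 fibroblast markers on a list without collagens were above 1 CPM in every group. Of them, 2 rose and 7 fell in senescence, 5 rose and 5 fell with the hairpin, and 1 rose and 7 fell with TRi-1. Over all genes tested, 56.9%, 50.7% and 19.9% were called in either direction in these comparisons. KRT5, KRT14 and SFTPC, markers of epithelium, and CD3E, a T cell marker, were at 0 in every library. The other 3 epithelial markers, EPCAM, CDH1 and CLDN4, were detected at low levels in every group, and EPCAM was called higher with the hairpin (3.05, 3.94 and 3.91 CPM against 1.3, 0.692 and 1.25 CPM in the senescent control). The summed fibroblast markers ran from 6824 to 6988 CPM in the growing control, 4872 to 4976 in the senescent control, 3167 to 3657 in shTXNRD1 libraries, 5279 to 5388 with DMSO and 5051 to 5074 with TRi-1. Within that sum VIM was lower with the hairpin (2893, 2854 and 2875 CPM in the senescent control, 1134, 1195 and 1236 in shTXNRD1 libraries) and DCN higher (553, 535 and 582 against 895, 1002 and 1140 CPM), and the part of these markers in the collagen results was not tested. The libraries differed in base composition: the mean GC content of their counted transcripts ran from 46.48% (shTXNRD1 replicate 3) to 48.69% (TRi-1 replicate 2). In the growing control it was 46.95%, 48.04% and 48.35%, and in shTXNRD1 48.08%, 47.35% and 46.48%. GC-rich collagen transcripts followed this within groups, as described below, and values with a correction for GC content are given beside many of the changes it moved.

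The repeat that makes a collagen is visible in the coding sequence. In the longest coding transcript of each member (GENCODE, GRCh38), runs of at least 5 triplets of codons that start with a glycine codon were counted. COL1A1, COL1A2, COL2A1, COL3A1, COL5A1, COL5A2, COL5A3, COL11A1 and COL11A2 each held 1 run of 337 to 343 triplets, and COL24A1 and COL27A1 had shorter longest runs of 216 and 217 triplets. The longest runs were 38 to 66 triplets in type IV members and 59 or 60 triplets in the short-chain members COL8A1, COL8A2 and COL10A1. COL10A1 was the tested member with the largest rise in senescence among those with counts in growing cells. A stretch from its helix is shown, with the glycine codon that opens each triplet in capitals. It lies in exon 3 of 3 of COL10A1, at chr6:116121123-116121212 (GRCh38, minus strand), within the coding part.
COL10A1 triple helix: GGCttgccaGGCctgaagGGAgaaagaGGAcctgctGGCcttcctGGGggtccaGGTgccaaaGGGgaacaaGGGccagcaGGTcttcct
Each of the 10 codons in capitals begins with GG. The lower-case ggt after GGG is also a glycine codon, but it does not open a triplet. The GC content of the longest coding transcript among the 44 members ran from 41.29% (COL25A1) to 67.44% (COL9A3).

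Collagen RNA made up a few percent of the scaled library in every group. The summed level of the 44 members was 24708, 30384 and 33795 CPM in the growing control and 36909, 39579 and 33621 CPM in the senescent control. It was lower with the hairpin, at 26957, 22471 and 19148 CPM, which is 62.3% of the senescent control mean. With DMSO the sum was 36941, 41799 and 42674 CPM, and with TRi-1 24607, 25602 and 23409 CPM, or 60.6% of the DMSO mean. Neither the shTXNRD1 and control libraries nor the TRi-1 and DMSO libraries overlapped in this sum.

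Per kilobase of exon, COL1A2 was the most abundant member in every group. In the growing control COL1A2 stood at 1177 ± 148 CPM per kilobase (SD, n = 3), followed by COL1A1 at 658 ± 254, COL6A3 at 500 ± 39.1 and COL3A1 at 307 ± 32.9. COL3A1, COL12A1 (274 ± 17.3) and COL5A2 (254 ± 19.3) were neighbours, each with an SD range that overlapped the next. In the senescent control COL6A1, next after COL1A1 at 484 ± 86.9 CPM per kilobase, overlapped COL6A3 at 438 ± 14.5. With TRi-1 the level of COL1A2 was 652 ± 18.2 CPM per kilobase, and COL6A1 (509 ± 54.1) and COL6A3 (471 ± 4.79) came next. Between the hairpin and the inhibitor, the top place was the same and the distance to COL1A1 was not: 1281 ± 126 against 364 ± 173 CPM per kilobase in shTXNRD1 libraries, and 652 ± 18.2 against 408 ± 38.3 with TRi-1. The type IV and type VI places depended on the transcript length used.

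**Figure D1:**
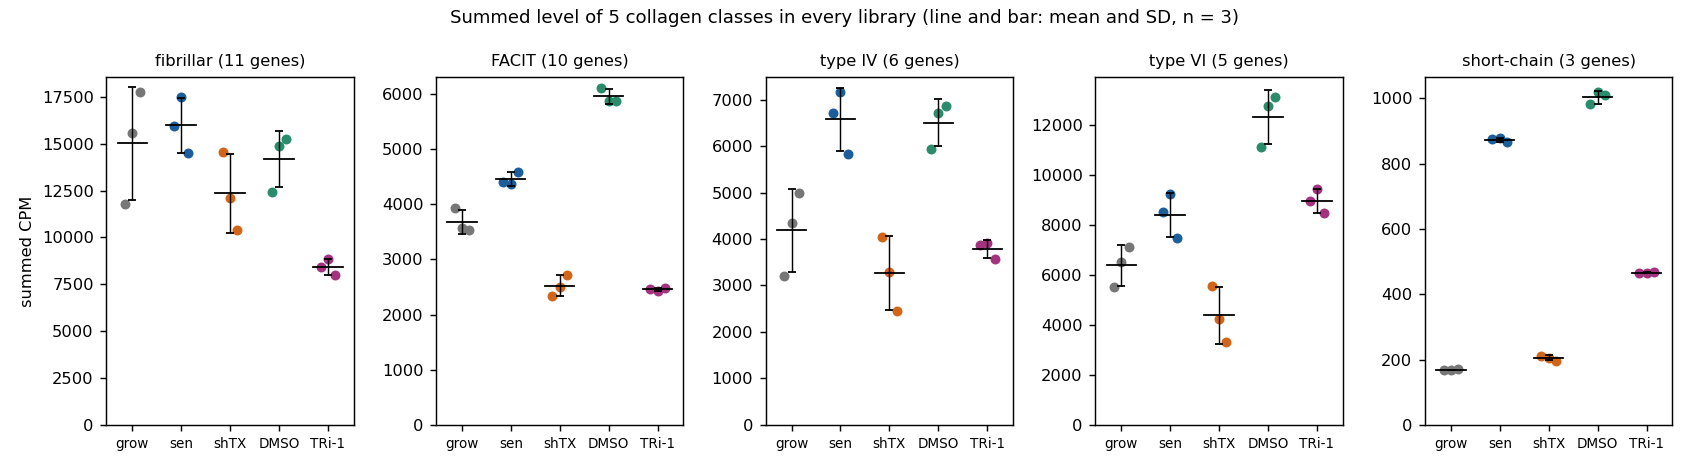
Summed level of 5 collagen classes in every library, in TMM-scaled CPM on linear axes from 0; points are libraries, lines and bars the mean and SD of 3 libraries (grow, growing control; sen, senescent control; shTX, shTXNRD1). The mean short-chain sum of the senescent control was 5.2 times that of the growing control and was lower with the hairpin and with TRi-1, and the mean type VI sum with TRi-1 (8977 CPM) lay between that of the senescent control (8417 CPM) and that of DMSO (12347 CPM).

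Senescent control cells were compared with growing control cells to show how the family differs in senescence. Of the 35 tested members, 21 rose and 4 fell at an adjusted p under 0.05. Over all 15994 genes tested, 27.4% were called higher and 29.5% lower, or 56.9% in either direction. The libraries of the 2 groups did not overlap for 28 of the 35 members, against 63.6% of all genes. The median log2 change was 0.74 over the 35 members and 0.03 over all genes. The risers included the short-chain genes COL8A1 and COL10A1, the anchoring fibril gene COL7A1, the fibrillar gene COL11A1 and 2 of 3 type VI genes, while COL1A1, COL1A2, COL5A1 and COL5A2, chains of the main fibrils, were not called. COL14A1, COL15A1, COL8A2 and COL6A3 fell. With the GC correction 22 rose and 8 fell. Among the tested members, COL10A1, COL17A1, COL19A1, COL21A1, COL22A1 and COL25A1 had fewer than 10 counts in each growing library and entered the test through the senescent groups, so their rise is no support for a trend of the family. Of the 25 calls, 19 held when each library of the 2 groups was left out in turn and under every other setting in which the gene was tested.

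The hairpin libraries were compared with the senescent control to show what depletion of TXNRD1 does in senescent cells. Here 18 members fell, among them COL5A1, COL4A1, COL8A1, COL10A1 and COL6A3, and 3 rose: COL11A1, COL24A1 and COL28A1. Over all genes, 24.8% were called lower and 25.8% higher, or 50.7% in either direction. The libraries did not overlap for 21 members, against 55.4% of all genes. The median log2 change of the 35 members was -0.76, against -0.01 over all genes. Of the 21 calls, 16 held in every setting, and COL11A1, COL1A1, COL4A2, COL4A4 and COL5A2 did not. Of 4 markers of smooth muscle, a contractile cell type (MYH11, ACTG2, DES and CNN1), 3 were called lower with the hairpin. Their sum, most of it ACTG2, ran from 509 to 521 CPM in the senescent control and from 333 to 364 CPM in shTXNRD1 libraries. In senescence 1 was called higher and 2 lower, and the sum in the growing control was 599 to 694 CPM. The part of these markers in the collagen result was not tested.

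TRi-1 was compared with DMSO to show the effect of inhibiting the TXNRD1 protein. Again 18 members fell, and the count of members called higher by edgeR was 0. At an unadjusted p under 0.05 that count was also 0, as it was by DESeq2 and by limma-voom. Over all genes, 12.2% were called lower and 7.64% higher, or 19.9% in either direction. The libraries did not overlap for 21 members, against 48.7% of all genes. The median log2 change was -0.66 over the 35 members and 0.01 over all genes, and the estimate was below 0 in 33 of the 35. COL14A1, COL15A1, COL3A1, COL10A1 and COL12A1 were among the members with the largest drops. Of the 18 calls, 13 held in every setting, and COL19A1, COL21A1, COL22A1, COL24A1 and COL4A4 did not. Of the smooth muscle markers, 2 of 4 were called lower, with sums of 557 to 599 CPM with DMSO and 468 to 483 CPM with TRi-1, and their part in the result was not tested.

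**Figure D2:**
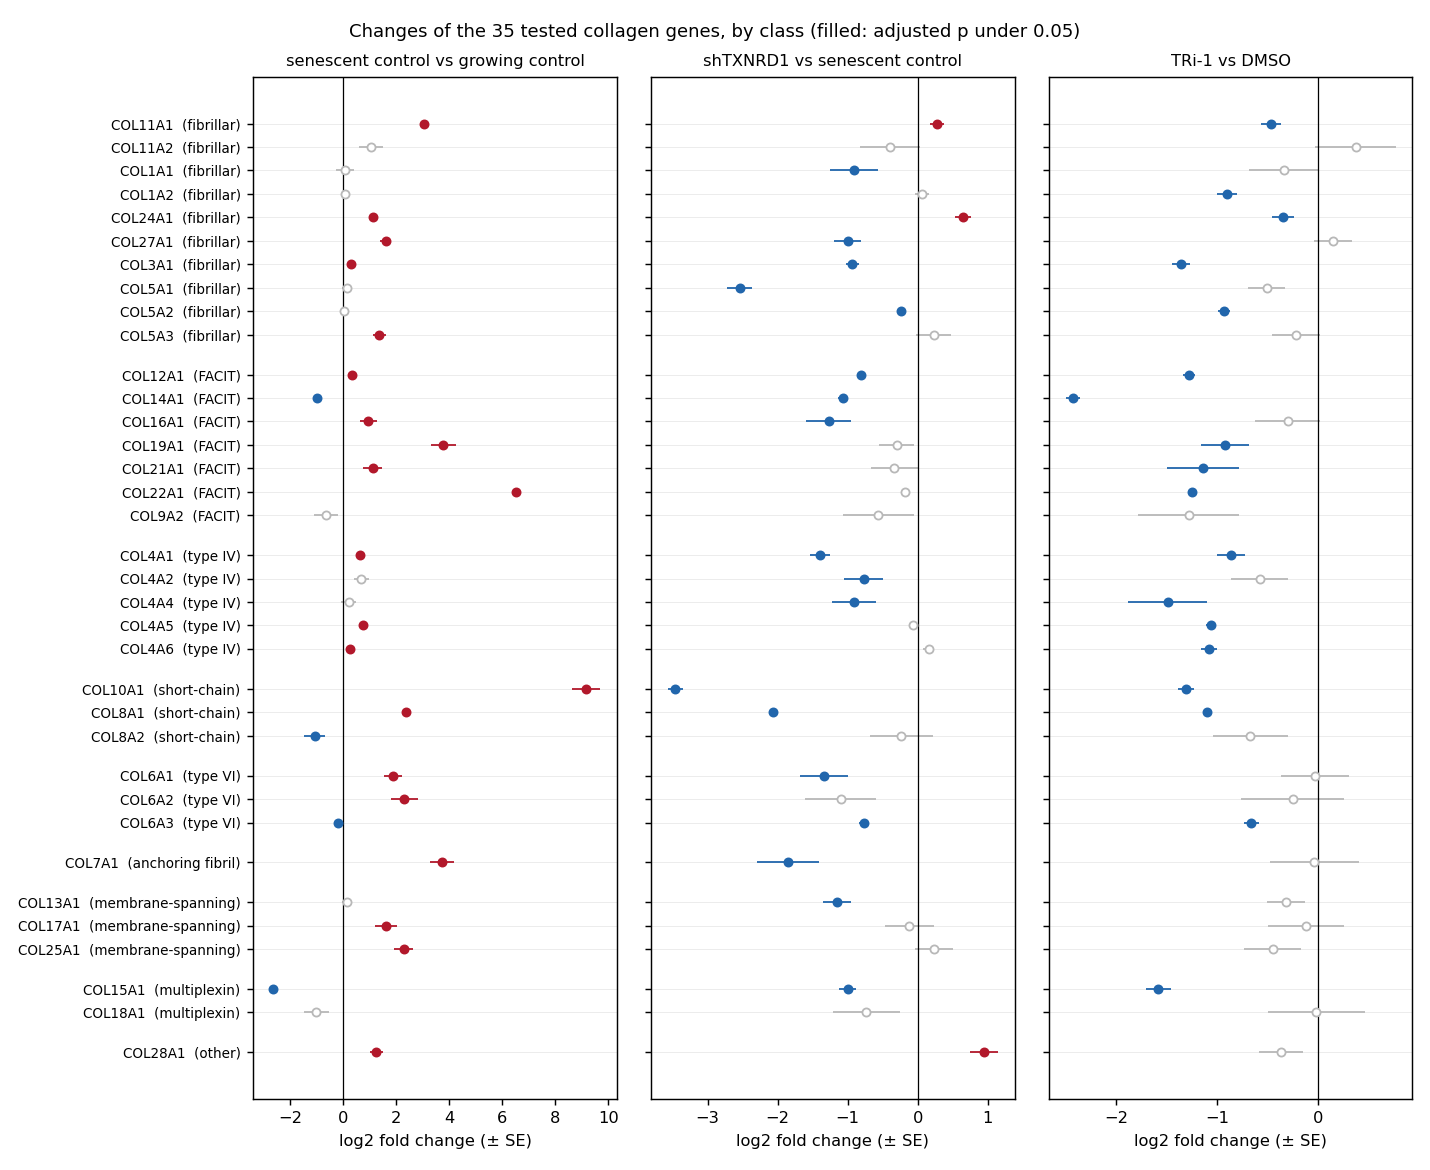
Log2 fold changes (points) with SE (bars) of the 35 tested members, ordered by class, in 3 comparisons on linear axes of different range; filled red is called higher, filled blue called lower and open grey not called. In senescence the largest estimates are those of COL10A1 and COL22A1, whose growing libraries held 2 and 0 counts so that the estimate depends on the fit, and with TRi-1 all filled points lie below 0.

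The hairpin and inhibitor comparisons use different libraries, so their calls can be set side by side. Both lowered 10 members: COL3A1, COL5A2, COL12A1, COL14A1, COL4A1, COL4A4, COL8A1, COL10A1, COL6A3 and COL15A1. Over all genes tested, 5.43% (868 of 15994) were called lower in both. The test of the difference, hairpin effect minus TRi-1 effect, was called for 7 of those 10, so a shared direction did not mean a like size. It called 18 of the 35 members in all, 11 with a positive and 7 with a negative difference, where 22.1% and 19.5% of all genes were called in those directions (41.7% in either). The median difference was 0.44 over the members and -0.03 over all genes. Positive differences, a weaker drop or a rise with the hairpin, included COL1A2, COL24A1, COL11A1, COL14A1, COL4A5, COL4A6 and COL28A1. Negative differences, a stronger drop with the hairpin, were COL5A1, COL10A1, COL7A1, COL6A1, COL27A1, COL8A1 and COL13A1. The difference for COL27A1 was -0.56 with the GC correction, against -1.16 without it. That correction also called COL22A1 (1.49), COL9A2 (1.45), COL5A3 (1.21, against 0.45 ± 0.35 without) and COL4A2 (0.43, against -0.19 ± 0.40) positive and COL16A1 (-0.30, against -0.97 ± 0.45) and COL4A1 (-0.28, against -0.53 ± 0.20) negative. Of the 18 calls, 15 held in every setting. The call for COL6A1 was at -1.31 ± 0.48 (adjusted p = 0.0476), or -0.63 with the GC correction. With 1 library left out, it was kept only without senescent control replicate 3 or shTXNRD1 replicate 1 (otherwise 0.0563 to 0.111). It also ended with upper-quartile scaling, with no filter, with a replicate block and without the 3 libraries lowest in GC (-0.86, adjusted p = 0.085). The call for COL13A1 was at -0.83 ± 0.27 (adjusted p = 0.0275), or -0.39 with the correction. It ended with no filter, and without senescent control replicate 1 or 2, shTXNRD1 replicate 2 or 3, DMSO replicate 1 or TRi-1 replicate 2 (0.0532 to 0.0687).

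**Figure D3:**
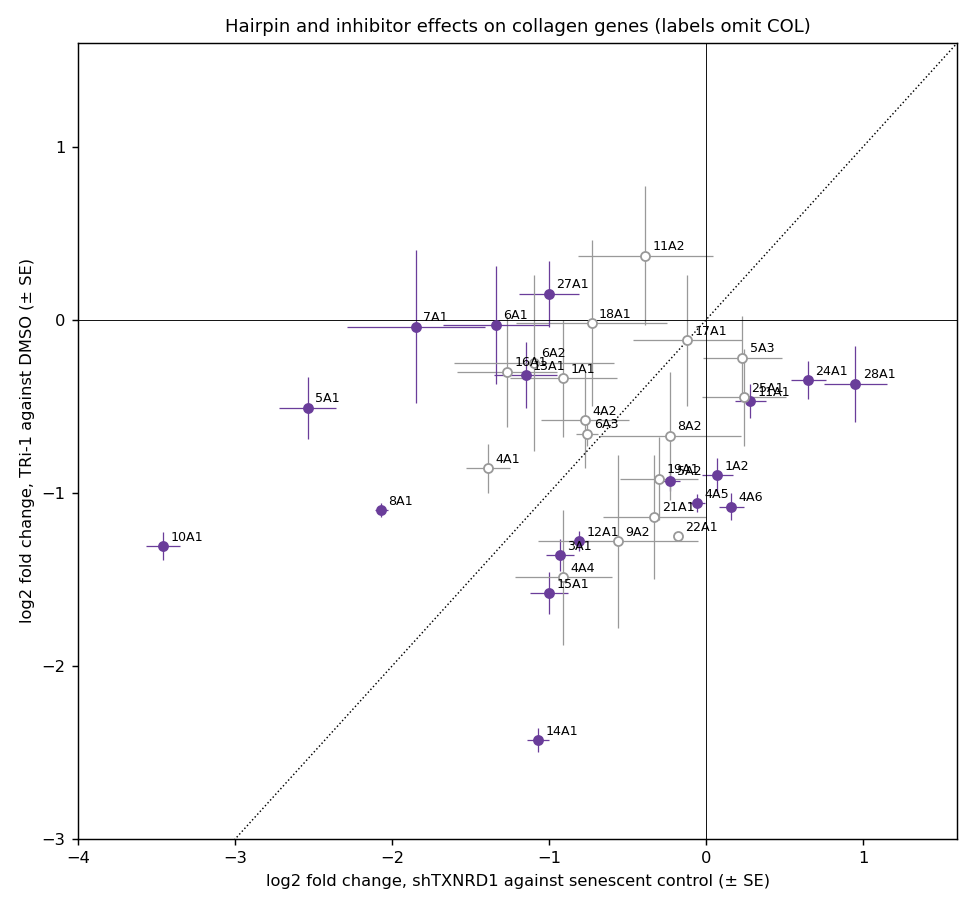
Log2 change with the hairpin (horizontal) against log2 change with TRi-1 (vertical) for the 35 tested members, with SE bars; filled purple points are the 18 members whose difference was called, and the dotted line marks equal effects. COL10A1 and COL5A1 lie far to the left of the line, and COL14A1, COL1A2, COL4A5 and COL4A6 lie below it.

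Among the fibrillar genes, 5 of 10 tested rose in senescence and none was called lower. With the hairpin 2 rose and 5 fell, and with TRi-1 5 fell. The shares over all genes, against which this and the other class counts can be read, were 27.4% higher and 29.5% lower in senescence, 25.8% and 24.8% with the hairpin and 7.64% and 12.2% with TRi-1, so 2 of 10 higher with the hairpin is near the background. COL1A2 encodes the less abundant chain of type I collagen. It was at 5503, 6547 and 7076 CPM in the growing control, 6594, 7084 and 6209 in the senescent control, 7660, 6845 and 6308 in shTXNRD1 libraries, 5944, 6867 and 6957 with DMSO and 3538, 3629 and 3431 with TRi-1. The first 4 groups overlapped and the TRi-1 libraries lay below all of them. Its log2 change was 0.07 ± 0.10 (SE; 95% interval -0.14 to 0.27) with the hairpin and -0.90 ± 0.10 (adjusted p = 2.17e-05) with TRi-1, and the difference of 0.97 ± 0.14 was called (adjusted p = 8.15e-05). With the GC correction COL1A2 was called slightly higher with the hairpin (0.20, adjusted p = 0.000123) and slightly lower in senescence (-0.08, adjusted p = 0.0452).

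COL1A1, the other chain of type I collagen, was at 2685, 4880 and 6197 CPM in the growing control, 4720, 5578 and 3968 in the senescent control, 3832, 2336 and 1450 in shTXNRD1 libraries, 2707, 3915 and 4183 with DMSO and 2819, 3127 and 2595 with TRi-1. Of the groups compared, only the shTXNRD1 and senescent control libraries did not overlap, and the low libraries within the growing, shTXNRD1 and DMSO groups were those with the lowest GC content. With the hairpin its log2 change was -0.91 ± 0.34 (adjusted p = 0.0427). That call ended without senescent control replicate 1 or 2 or shTXNRD1 replicate 2 or 3 (adjusted p 0.0815 to 0.139), and without the 3 libraries lowest in GC (0.0578), and was kept with a GC correction (-0.56, adjusted p = 0.00389). With TRi-1 it was not called (-0.34 ± 0.34, interval -1.08 to 0.40), but with the GC correction it was, at -0.52 (adjusted p = 0.0112).

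COL3A1, the chain of type III collagen that joins type I fibrils in elastic tissues, was at 1504, 1739 and 1863 CPM in the growing control, 2080, 2185 and 1949 in the senescent control, 1201, 1084 and 987 in shTXNRD1 libraries, 1594, 1765 and 1746 with DMSO and 664, 672 and 647 with TRi-1. It rose slightly in senescence (log2 change 0.28 ± 0.09, adjusted p = 0.011), a call that ended without growing replicate 1 or senescent control replicate 2 (adjusted p 0.0539 and 0.0556). It fell with both inhibitions, by more with TRi-1 (-1.36 ± 0.09, adjusted p = 1.24e-07) than with the hairpin (-0.93 ± 0.09, adjusted p = 7.58e-07). Its level relative to COL1A2, per kilobase, varied little within groups: 0.261 ± 0.00509 (SD, n = 3) in the growing control, 0.305 ± 0.00356 in the senescent control, 0.154 ± 0.00103 with the hairpin, 0.253 ± 0.00854 with DMSO and 0.183 ± 0.00177 with TRi-1. The hairpin libraries held the lowest ratio, at 0.153, 0.155 and 0.153, and no library of another group came below 0.181.

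COL5A1 encodes a chain of type V collagen, which starts fibril assembly and limits fibril width. COL5A1 was at 375, 512 and 604 CPM in the growing control, 548, 601 and 476 in the senescent control, 115, 89.4 and 74 in shTXNRD1 libraries, 529, 649 and 671 with DMSO and 429, 458 and 414 with TRi-1. The hairpin libraries lay far below all others, with a log2 change of -2.54 ± 0.18 (adjusted p = 2.36e-07). In senescence COL5A1 was called only with the GC correction (-0.25, adjusted p = 3.63e-05, against 0.12 ± 0.18 without). With TRi-1 the drop was not called (-0.51 ± 0.18, adjusted p = 0.0655), but it was with the GC correction (-0.68, adjusted p = 1.17e-09), and the difference between the inhibitions was -2.04 ± 0.25 (adjusted p = 4.82e-05). Its partner chain COL5A2 showed the opposite order, with -0.23 ± 0.06 for the hairpin (not called when the compared groups were fitted alone) and -0.93 ± 0.06 (adjusted p = 2.04e-07) for TRi-1. The COL5A1 level relative to COL5A2, per kilobase, was 0.244 ± 0.0224 in the senescent control, 0.0489 ± 0.0087 with the hairpin, 0.337 ± 0.0422 with DMSO and 0.452 ± 0.0199 with TRi-1.

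COL11A1, a chain of type XI collagen known from cartilage and from fibrotic and tumour stroma, was at 1.51, 2.22 and 1.6 CPM in the growing control, 15.2, 15.6 and 13.8 in the senescent control, 19.5, 18.3 and 16.4 in shTXNRD1 libraries, 30.3, 28.3 and 29 with DMSO and 21.8, 21.5 and 20 with TRi-1. The 8.34-fold rise in senescence (log2 change 3.06 ± 0.13, adjusted p = 5.11e-11) was the largest of the fibrillar class. With the hairpin COL11A1 was slightly higher still (0.28 ± 0.10, adjusted p = 0.0357), a call that ended without any of the senescent control libraries or shTXNRD1 replicate 1 or 2 (adjusted p 0.0532 to 0.131) and with the GC correction (0.21, adjusted p = 0.092). TRi-1 lowered it against DMSO (-0.47 ± 0.10, adjusted p = 0.00522). COL24A1, a minor fibrillar chain with the shorter helix, likewise rose in senescence (1.12 ± 0.11) and with the hairpin (0.65 ± 0.11, adjusted p = 0.000198) and was lower with TRi-1 (-0.35 ± 0.11, adjusted p = 0.0405). That last call ended without any 1 of the 6 libraries compared (adjusted p 0.0614 to 0.153). COL27A1, the other member with the shorter helix, rose 3.01-fold in senescence and fell 2.01-fold with the hairpin (adjusted p = 0.000715; -0.60 on the log2 scale with the GC correction), and its change with TRi-1 was 0.15 ± 0.19. COL5A3 rose in senescence (1.36 ± 0.26), or 0.81 with the GC correction, which also called it higher with the hairpin (0.75, adjusted p = 4.89e-07, against 0.23 ± 0.25 without) and lower with TRi-1 (-0.46, adjusted p = 0.000234, against -0.22 ± 0.24). COL11A2, at most 41 counts in any library, was not called in any of the 3 comparisons.

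**Figure D4:**
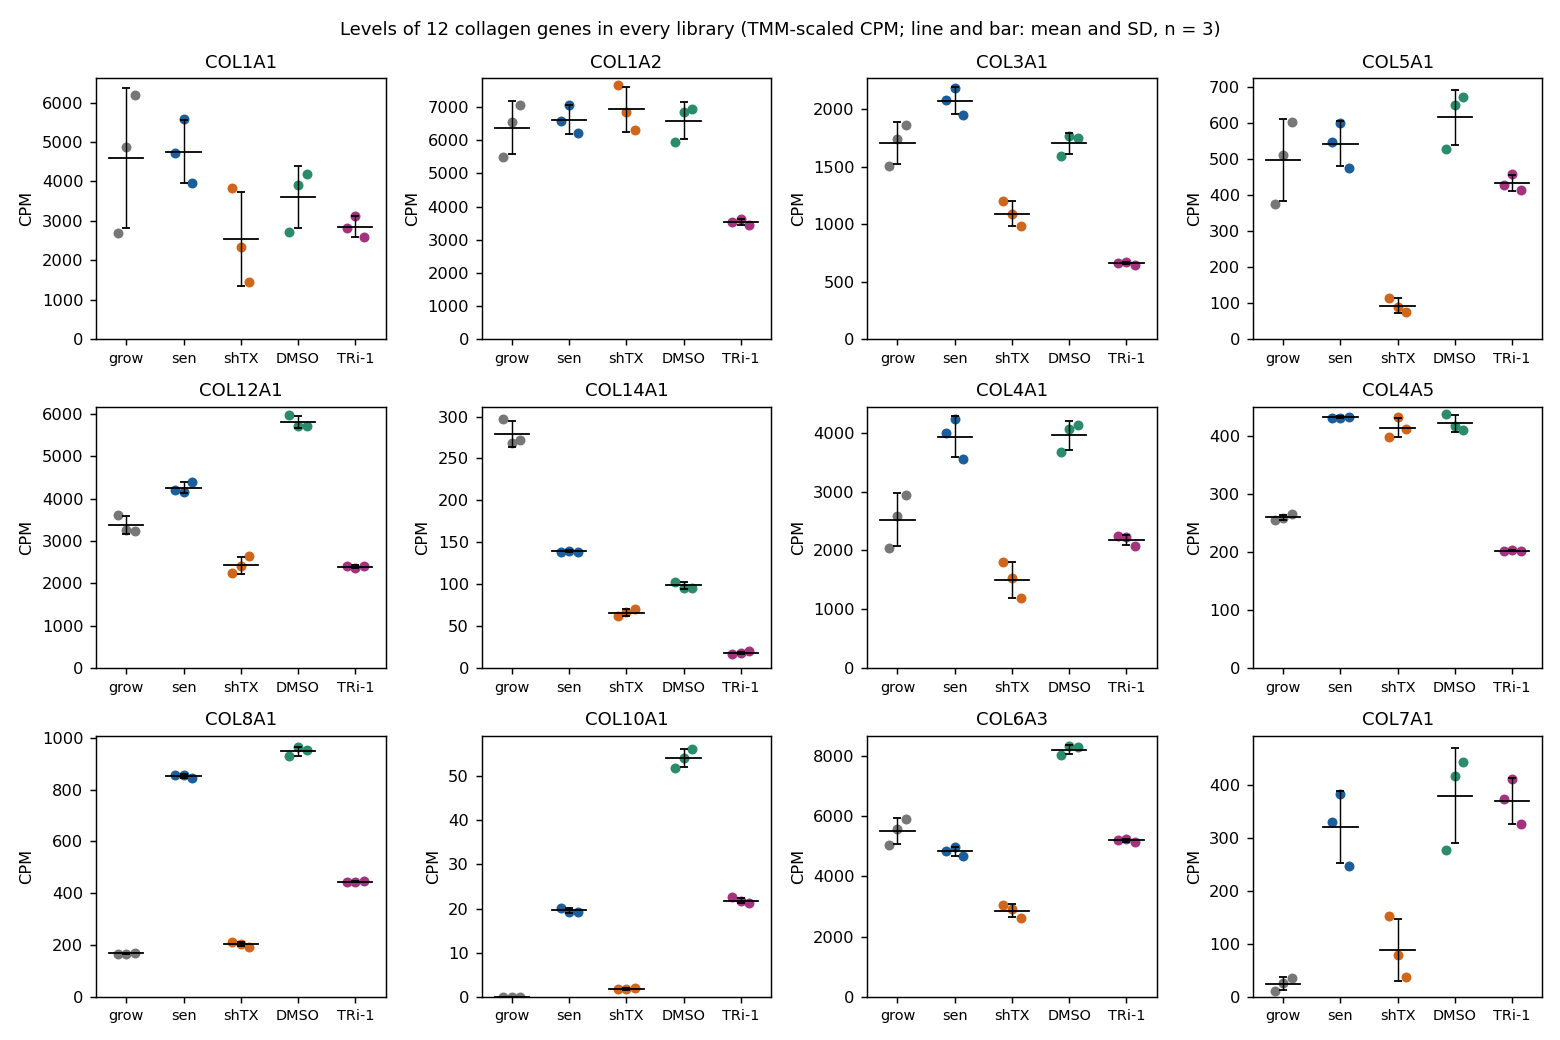
Levels of 12 members in every library, in TMM-scaled CPM on linear axes from 0; points are libraries in replicate order, lines and bars the mean and SD of 3 libraries (grow, growing control; sen, senescent control; shTX, shTXNRD1). COL8A1 and COL10A1 are high in the senescent groups and low with the hairpin, COL1A2 and COL4A5 are low with TRi-1 and not with the hairpin, and COL7A1 and COL1A1 vary between libraries of a group.

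Of the 7 tested FACIT genes, 5 rose and COL14A1 fell in senescence, 3 fell with the hairpin and 5 fell with TRi-1. Among the 5 that rose, COL19A1, COL21A1 and COL22A1 had fewer than 10 counts in each growing library. They entered the test through the senescent groups, so their rise is no support for a trend of the class. COL12A1, which carried most of the class sum and encodes a surface molecule of type I fibrils, had a log2 change of 0.34 ± 0.06 in senescence, -0.81 ± 0.06 with the hairpin and -1.28 ± 0.06 with TRi-1 (adjusted p = 1.38e-08). COL14A1, a FACIT that regulates early fibril growth, was at 297, 268 and 272 CPM in the growing control, 138, 140 and 138 in the senescent control, 61.7, 66.2 and 69.8 in shTXNRD1 libraries, 103, 95.9 and 95.7 with DMSO and 17.2, 17.8 and 19.7 with TRi-1. Each senescent group lay below the growing control and no groups overlapped. The drop with TRi-1 was 5.39-fold (-2.43 ± 0.07, adjusted p = 4.71e-11) and that with the hairpin 2.11-fold (-1.07 ± 0.07, adjusted p = 1.29e-08), a difference of 1.35 ± 0.10 (adjusted p = 1.29e-07).

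COL16A1, found near fibrils and cell surfaces, was at 19.2, 33.7 and 44.4 CPM in the growing control, 64, 71.6 and 51.2 in the senescent control, 37.6, 25 and 15 in shTXNRD1 libraries, 40.7, 55.5 and 59 with DMSO and 42.2, 45.7 and 38.3 with TRi-1. The senescent control lay above both the growing and the hairpin libraries. It rose in senescence (0.94 ± 0.32, adjusted p = 0.0234), a call that ended without growing replicate 1 or 2 or senescent control replicate 1 or 2 (adjusted p 0.0534 to 0.0866), and fell with the hairpin (-1.27 ± 0.32, adjusted p = 0.00569). With the GC correction these changes were 0.48 and -0.82, and the change with TRi-1, -0.30 ± 0.32 without it, was called at -0.51 (adjusted p = 9.07e-06). COL22A1, a collagen of tissue junctions, had no count in the growing libraries and 17, 6 and 11 counts in the senescent control, at least 12.4-fold higher when the growing group is set to 3 counts in all. Its 13, 24 and 29 counts with DMSO against 7, 11 and 9 with TRi-1 gave a call (adjusted p = 0.0326) that ended without DMSO replicate 2 or 3 or any TRi-1 library (adjusted p 0.0595 to 0.114). COL19A1 had 6 counts in the growing group and 80 in the senescent control, a called rise (3.77 ± 0.47), and fell with TRi-1 (-0.92 ± 0.24, adjusted p = 0.0152), a call that ended without DMSO replicate 1 or TRi-1 replicate 2 (0.0736 and 0.0738). COL21A1, with at most 14 counts per library, was called 2.15-fold higher in senescence (adjusted p = 0.0214) and lower with TRi-1 (-1.14 ± 0.36, adjusted p = 0.0385). The first call ended without growing replicate 2 or 3 or senescent control replicate 1 (adjusted p 0.0505 to 0.0907), and the second without DMSO replicate 1 or 3 or TRi-1 replicate 2 or 3 (0.0848 to 0.183). COL9A2, a chain of the cartilage FACIT type IX, was not called in any of the 3 comparisons, and with the GC correction it was called lower in senescence (-1.23, adjusted p = 0.00159) and with TRi-1 (-1.48, adjusted p = 0.00186).

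Type IV collagen genes sit in pairs that start on opposite strands. In RefSeq (GRCh38.p14) the starts of COL4A1 and COL4A2 on chromosome 13 are 126 bases apart, those of COL4A4 and COL4A3 on chromosome 2 are 418 apart and those of COL4A6 and COL4A5 on the X chromosome are 379 apart. Both genes of the last pair fell by a like amount with TRi-1, so the 250 bases before the RefSeq start of COL4A5, which make up most of the shared stretch, are shown. Capitals mark the CCAAT letters on either strand, found at chrX:108439588-108439837 (GRCh38.p14, plus strand, upstream of the first exon).
COL4A5 upstream: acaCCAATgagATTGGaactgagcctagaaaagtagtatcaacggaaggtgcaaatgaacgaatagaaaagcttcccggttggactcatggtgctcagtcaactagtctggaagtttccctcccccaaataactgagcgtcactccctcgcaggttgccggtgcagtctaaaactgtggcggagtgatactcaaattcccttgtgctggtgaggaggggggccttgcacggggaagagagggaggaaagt
COL4A5 was at 256, 259 and 265 CPM in the growing control, 432, 432 and 434 in the senescent control, 399, 433 and 413 in shTXNRD1 libraries, 438, 417 and 410 with DMSO and 202, 203 and 202 with TRi-1. The 3 other senescent groups overlapped near the same level and the TRi-1 libraries lay below the growing control. It rose 1.66-fold in senescence (0.74 ± 0.05, adjusted p = 7.02e-09) and fell 2.09-fold with TRi-1 (-1.06 ± 0.05, adjusted p = 4.01e-09), while the hairpin change was -0.06 ± 0.05 (95% interval -0.16 to 0.04). COL4A6 gave -1.08 ± 0.08 with TRi-1 (adjusted p = 5.85e-07) and 0.16 ± 0.08 (interval -0.01 to 0.33) with the hairpin, which was called with the GC correction (0.29, adjusted p = 2.72e-05). It was slightly higher in senescence (0.25 ± 0.08, adjusted p = 0.0131), a call that ended without growing replicate 1 or senescent control replicate 2 (adjusted p 0.0576 and 0.0622), and the change was 0.12 with the GC correction. In senescence the pair thus moved unequally: the level of COL4A5 relative to COL4A6, per kilobase, was 2.95, 2.57 and 2.41 in the growing control and 3.69, 3.47 and 3.85 in the senescent control. The difference between the inhibitions was called for both genes, at 1.00 ± 0.07 for COL4A5 and 1.24 ± 0.11 for COL4A6.

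COL4A1 and COL4A2 encode the chains of the common type IV network. COL4A1 was at 2036, 2594 and 2942 CPM in the growing control, 4003, 4242 and 3562 in the senescent control, 1800, 1522 and 1189 in shTXNRD1 libraries, 3676, 4072 and 4129 with DMSO and 2238, 2222 and 2083 with TRi-1. The senescent control and DMSO libraries were the highest, and the TRi-1 libraries lay within, and the hairpin libraries below, the range of growing cells. COL4A1 rose in senescence (0.64 ± 0.14, adjusted p = 0.00177) and fell with the hairpin (-1.39 ± 0.14, adjusted p = 3.48e-06) and with TRi-1 (-0.86 ± 0.14, adjusted p = 0.000979). COL4A2 was at 837, 1410 and 1685 CPM in the growing control, 2181, 2376 and 1744 in the senescent control, 1719, 1222 and 749 in shTXNRD1 libraries, 1714, 2138 and 2232 with DMSO and 1377, 1450 and 1243 with TRi-1.
The growing and the hairpin libraries lay below the senescent control, and the TRi-1 libraries below DMSO. The 3 estimates for COL4A2 had the same signs as those for COL4A1, at 0.68 ± 0.28, -0.77 ± 0.28 and -0.58 ± 0.28, and only the hairpin change was called (adjusted p = 0.0381). That call ended without senescent control replicate 1 or 2 or shTXNRD1 replicate 2 or 3 (adjusted p 0.0867 to 0.125) and with a replicate block. With the GC correction all 3 were called, at 0.24, -0.36 and -0.79. COL4A4, a chain of the kidney and lung basement membrane, was at 9, 6 and 5 counts in shTXNRD1 libraries against 15, 12 and 12 in the senescent control, and at 2, 4 and 4 counts with TRi-1 against 7, 11 and 11 with DMSO. The groups did not overlap, and both drops were called (-0.91 ± 0.31, adjusted p = 0.0355, and -1.49 ± 0.39, adjusted p = 0.0166). The first ended without any senescent control library or shTXNRD1 replicate 2 or 3 (adjusted p 0.059 to 0.125), and the second without DMSO replicate 2 or TRi-1 replicate 1 (0.0793 and 0.0892). Of 4 tested endothelial markers, genes of a cell type rich in type IV collagen, 3 were called higher in senescence, 3 lower and 1 higher with the hairpin and 2 lower with TRi-1. The one higher was KDR, a defining receptor of the type, at 0.568, 0.494 and 0.35 CPM in the senescent control and 7.7, 7.96 and 9.07 in shTXNRD1 libraries. The sum of the 6 listed, nearly all of it TEK, ran from 109 to 134 CPM in the growing control, 159 to 172 in the senescent control, 105 to 133 in shTXNRD1 libraries, 85.4 to 91.1 with DMSO and 51.7 to 55 with TRi-1. CDH5 and EMCN, defining genes of that type, did not pass the filter on low counts, and the part of these genes in the type IV result was not tested.

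The short-chain genes COL8A1 and COL10A1 rose in senescence and fell with both inhibitions. COL10A1 encodes type X collagen, known from hypertrophic cartilage, and COL8A1 a chain of type VIII collagen, known from blood vessel walls and the cornea. The sequences before 2 of the 3 RefSeq starts of COL10A1 (GRCh38.p14, minus strand) are shown. COL10A1 was the only 1 of 32 members with a promoter entry that held TGANTCA. This is a loose pattern for sites of AP-1 transcription factors, in which N is any base. The matches, TGAATCA and TGATTCA, lie in the first sequence and not in the second. They have A or T at N, and neither is called an AP-1 site here. The first sequence is at chr6:116158773-116159022 and the second, before the start of the shorter transcript, at chr6:116126134-116126382. Capitals mark TGANTCA and the letters TATAAA and CCAAT on either strand, and no marked matches overlap.
COL10A1 upstream, first: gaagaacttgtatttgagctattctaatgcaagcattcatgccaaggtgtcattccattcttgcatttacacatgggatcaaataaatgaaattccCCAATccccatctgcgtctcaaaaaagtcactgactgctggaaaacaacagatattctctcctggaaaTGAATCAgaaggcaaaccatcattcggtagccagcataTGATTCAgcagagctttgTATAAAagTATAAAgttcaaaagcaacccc
COL10A1 upstream, second: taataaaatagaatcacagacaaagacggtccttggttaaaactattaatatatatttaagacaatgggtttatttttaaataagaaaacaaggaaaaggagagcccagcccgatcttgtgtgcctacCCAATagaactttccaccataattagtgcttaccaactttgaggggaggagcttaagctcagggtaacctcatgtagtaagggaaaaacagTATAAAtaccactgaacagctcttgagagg
The data do not say which start was used. Of 35116 RefSeq promoters, 6.57% held TGANTCA in the same 250-base window, 10.7% TATAAA, 32% CCAAT and 42.6% GGGCGG. Among the 32 members with an entry, 1, 7, 11 and 21 held them in at least 1 of their promoters, 44 in all. These are counts of genes and the shares are of promoters, so the 2 are not directly comparable. COL14A1, COL1A1, COL1A2, COL20A1, COL22A1, COL2A1, COL3A1, COL5A2, COL6A1, COL6A5, COL8A1 and COL9A3 had no entry. A match is a description of the letters and not a measured binding site.

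COL10A1 had 1, 0 and 1 counts in the growing libraries and 497, 390 and 385 in the senescent control, a ratio of 694 with a 95% counting interval of 192 to 5739. Its level was 20.2, 19.3 and 19.3 CPM in the senescent control, 1.7, 1.71 and 1.93 in shTXNRD1 libraries, 51.9, 54.2 and 56.1 with DMSO and 22.5, 21.6 and 21.3 with TRi-1. The DMSO libraries were the highest and the TRi-1 libraries lay just above the senescent control, so the drop with TRi-1 was from a raised DMSO level. COL10A1 fell 11-fold with the hairpin (-3.46 ± 0.11, adjusted p = 1.62e-11) and 2.48-fold with TRi-1 (-1.31 ± 0.08, adjusted p = 1.37e-07). Of 5 cartilage markers, 2 passed the filter on low counts. HAPLN1, a link protein of cartilage matrix, was at 0.278, 0.0822 and 0.141 CPM in the growing control, 3.81, 3.95 and 4.9 in the senescent control, 5.6, 5.91 and 7.43 in shTXNRD1 libraries, 2.18, 2.74 and 2.64 with DMSO and 0.356, 0.37 and 0.0845 with TRi-1. SOX9, a cartilage transcription factor, was at 28.8, 25.3 and 26.8 CPM in the senescent control and 56.7, 54.6 and 60.5 CPM in shTXNRD1 libraries. With the hairpin COL10A1 was thus low where SOX9 was called higher, while HAPLN1 lay above the senescent control and was not called. With TRi-1 COL10A1 and HAPLN1 were both below DMSO. SOX9 went the other way there, at 46.8, 45.2 and 45.3 CPM with TRi-1 against 31.7, 33 and 34.5 with DMSO. ACAN, the main cartilage proteoglycan, was at most 0.255 CPM in any library, and COL2A1 had 12 counts over all 15. The sum of the 5 markers ran from 24 to 27.8 CPM in the growing control, 29.3 to 32.6 in the senescent control, 60.5 to 68 in shTXNRD1 libraries, 33.9 to 37.3 with DMSO and 45.4 to 47.4 with TRi-1, and their part in the COL10A1 result was not tested.

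COL8A1 was at 167, 167 and 169 CPM in the growing control, 855, 857 and 846 in the senescent control, 210, 203 and 194 in shTXNRD1 libraries, 930, 964 and 952 with DMSO and 443, 442 and 446 with TRi-1. No groups overlapped, and the hairpin libraries were close above the growing ones. The rise in senescence was 5.08-fold (2.35 ± 0.04, adjusted p = 2.26e-14), the drop with the hairpin 4.21-fold (-2.07 ± 0.04, adjusted p = 1.15e-12) and the drop with TRi-1 2.14-fold (-1.10 ± 0.04, adjusted p = 1.8e-09). The hairpin effect was larger by -0.98 ± 0.06 (adjusted p = 5.15e-08). COL8A2, the other chain of type VIII collagen, was at 15, 14 and 11 counts in the growing control, 7, 5 and 5 in the senescent control, 3, 5 and 6 in shTXNRD1 libraries, 8, 8 and 22 with DMSO and 5, 6 and 12 with TRi-1. It was called lower in senescence (-1.09 ± 0.39, adjusted p = 0.022), and this ended without growing replicate 1 or 2 or senescent control replicate 2 or 3 (adjusted p 0.0506 to 0.0607) and by DESeq2.

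In type VI collagen, the filament of COL6A1, COL6A2 and COL6A3 chains, the genes moved apart in senescence. COL6A3 was at 5052, 5586 and 5905 CPM in the growing control, 4852, 4978 and 4661 in the senescent control, 3057, 2903 and 2617 in shTXNRD1 libraries, 8030, 8315 and 8287 with DMSO and 5210, 5239 and 5137 with TRi-1. COL6A1 was at 331, 606 and 750 CPM in the growing control, 2092, 2399 and 1665 in the senescent control, 1244, 732 and 451 in shTXNRD1 libraries, 1711, 2368 and 2552 with DMSO and 2141, 2397 and 1938 with TRi-1. COL6A2 was at 131, 342 and 466 CPM in the growing control, 1586, 1853 and 1164 in the senescent control, 1266, 622 and 255 in shTXNRD1 libraries, 1377, 2113 and 2289 with DMSO and 1615, 1833 and 1420 with TRi-1.
The growing libraries lay below the senescent control for COL6A1 and COL6A2 and above it for COL6A3. Log2 changes in senescence were 1.87 ± 0.34 for COL6A1 (adjusted p = 0.000637), 2.29 ± 0.51 for COL6A2 (adjusted p = 0.00266) and -0.19 ± 0.07 for COL6A3 (adjusted p = 0.0244), and 1.37, 1.73 and -0.28 with the GC correction. The COL6A3 call ended without growing replicate 2 or 3 or senescent control replicate 1 or 3 (adjusted p 0.0625 to 0.118). Per kilobase, COL6A1 stood at 0.261 ± 0.0819 of COL6A3 in the growing control and 1.1 ± 0.163 in the senescent control. With the hairpin COL6A1 (-1.34 ± 0.34, adjusted p = 0.00633; -0.88 with the GC correction) and COL6A3 (-0.76 ± 0.07, adjusted p = 4.75e-07) fell, while COL6A2 (-1.10 ± 0.51) was called only after the GC correction (-0.62, adjusted p = 0.0155). With TRi-1 COL6A3 fell (-0.66 ± 0.07, adjusted p = 1.1e-05), and COL6A1 (-0.03 ± 0.34, interval -0.78 to 0.71) and COL6A2 (-0.25 ± 0.51) were not called. With the GC correction COL6A1 was, at -0.26 (adjusted p = 0.013). The COL6A3 drop set TRi-1 against a DMSO level that itself was 1.7-fold above the senescent control.

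COL7A1 encodes type VII collagen, the anchoring fibril that fastens the epidermis to the dermis. The 250 bases before its RefSeq start are shown because it had the largest fold rise in senescence after COL10A1, COL22A1 and COL19A1. They lie at chr3:48595330-48595579 (GRCh38.p14, minus strand), with GGGCGG and TATAAA matches on either strand in capitals and no overlap between them.
COL7A1 upstream: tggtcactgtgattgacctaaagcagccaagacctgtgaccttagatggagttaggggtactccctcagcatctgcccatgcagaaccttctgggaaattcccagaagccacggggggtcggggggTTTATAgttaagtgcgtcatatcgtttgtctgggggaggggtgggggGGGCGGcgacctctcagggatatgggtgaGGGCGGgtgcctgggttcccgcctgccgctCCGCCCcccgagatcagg
COL7A1 was at 11.5, 25.6 and 35.8 CPM in the growing control, 330, 383 and 247 in the senescent control, 152, 78.1 and 36.8 in shTXNRD1 libraries, 277, 417 and 443 with DMSO and 372, 411 and 326 with TRi-1. All growing libraries lay below all others, and the hairpin libraries lay between. The rise in senescence was 3.73 ± 0.46 on the log2 scale (adjusted p = 3.64e-05; 3.18 with the GC correction), and the drop with the hairpin was -1.85 ± 0.44 (adjusted p = 0.00465; -1.37 with the correction). With TRi-1 the change was -0.04 ± 0.44 (interval -0.99 to 0.92). The difference between the inhibitions was called (-1.81 ± 0.62, adjusted p = 0.0359; -1.10 with the correction), and this ended without any TRi-1 library, DMSO replicate 1 or 2, senescent control replicate 1 or 2 or shTXNRD1 replicate 2 (adjusted p 0.0503 to 0.0873).

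Of the membrane-spanning members, COL13A1, a surface collagen of focal contacts and neuromuscular junctions, was at 14.5, 23.5 and 22.8 CPM in the growing control, 23.1, 22.1 and 21.6 in the senescent control, 12.5, 10.1 and 7.43 in shTXNRD1 libraries, 28.2, 36.6 and 37.3 with DMSO and 25.6, 30.1 and 26.1 with TRi-1. The hairpin libraries were the lowest (-1.15 ± 0.20, adjusted p = 0.000318), and with TRi-1 the change was called after the GC correction (-0.48, adjusted p = 3.4e-05) and not before (-0.32 ± 0.19). COL17A1, the hemidesmosome collagen of epithelia, had 3, 7 and 3 counts in the growing control, 15, 13 and 9 in the senescent control, 10, 12 and 11 in shTXNRD1 libraries, 4, 10 and 14 with DMSO and 7, 10 and 8 with TRi-1. COL25A1, known from neurons, had 5, 4 and 5 counts in the growing control, 28, 12 and 24 in the senescent control, 21, 28 and 24 in shTXNRD1 libraries, 16, 19 and 39 with DMSO and 15, 18 and 19 with TRi-1. Both rose in senescence, COL17A1 3.04-fold (adjusted p = 0.00334) and COL25A1 4.84-fold (adjusted p = 4.84e-05), and were not called with either inhibition.

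COL15A1 and COL18A1 encode the multiplexins, collagens of the basement membrane zone with interrupted helices. COL15A1 was at 40.1, 46.9 and 47.6 CPM in the growing control, 7.83, 6.77 and 6.5 in the senescent control, 3.75, 3.68 and 3.12 in shTXNRD1 libraries, 8.71, 9.65 and 10.5 with DMSO and 3.41, 3.33 and 2.96 with TRi-1. The growing libraries stood far above all senescent ones. It fell 6.37-fold in senescence (-2.67 ± 0.11, adjusted p = 5.82e-11), 2-fold with the hairpin (adjusted p = 8.08e-06) and 2.99-fold with TRi-1 (-1.58 ± 0.12, adjusted p = 5.98e-07). COL18A1, whose tail gives endostatin, was at 36.8, 88.9 and 118 CPM in the growing control, 40.2, 50.2 and 29.3 in the senescent control, 43.3, 19.6 and 9.56 in shTXNRD1 libraries, 32.2, 47.1 and 50.2 with DMSO and 42.3, 48.2 and 37.8 with TRi-1. Growing replicate 1, the growing library lowest in GC, overlapped the senescent control. The senescence change of -1.02 ± 0.47 was not called (adjusted p = 0.0852), and it was with the GC correction (-1.64, adjusted p = 8.08e-08) and without the 3 libraries lowest in GC (-1.37, adjusted p = 0.00729).

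COL28A1, a type VI-like collagen of peripheral nerve, had 11, 9 and 13 counts in the growing control, 25, 27 and 20 in the senescent control, 49, 43 and 43 in shTXNRD1 libraries, 18, 21 and 31 with DMSO and 18, 16 and 19 with TRi-1. The hairpin libraries were the highest. COL28A1 rose in senescence (1.24 ± 0.24, adjusted p = 0.000419) and again with the hairpin (0.95 ± 0.20, adjusted p = 0.00126), and with TRi-1 its change was -0.37 ± 0.22.

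Differences within groups were tied to GC content. Over the 27 members with a mean of at least 1 CPM, the spread of the 3 libraries (SD of log2 level) rose with the GC content of the transcript in every group, with Spearman's rho of 0.86 in the growing control, 0.80 in the senescent control, 0.81 in shTXNRD1 libraries, 0.73 with DMSO and 0.50 with TRi-1. The points are genes of the same libraries and the coefficients are descriptions. Above 58% GC, a bound chosen after the values were seen, the median SD in shTXNRD1 libraries was 0.65 for 11 members, and 0.12 for the other 16. Of the tested members above that bound, 1 of 15 was called lower with TRi-1, against 17 of 20 below it. The median SE there was 0.34 against 0.10. With the GC correction the members called lower with TRi-1 were 26 in place of 18, while the hairpin count was 19 in place of 18. Over 15433 genes, changes and GC content had a Spearman's rho of 0.278 in senescence, -0.31 with the hairpin and 0.327 with TRi-1, and the correction would also remove a real change that is related to GC content.

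**Figure D5:**
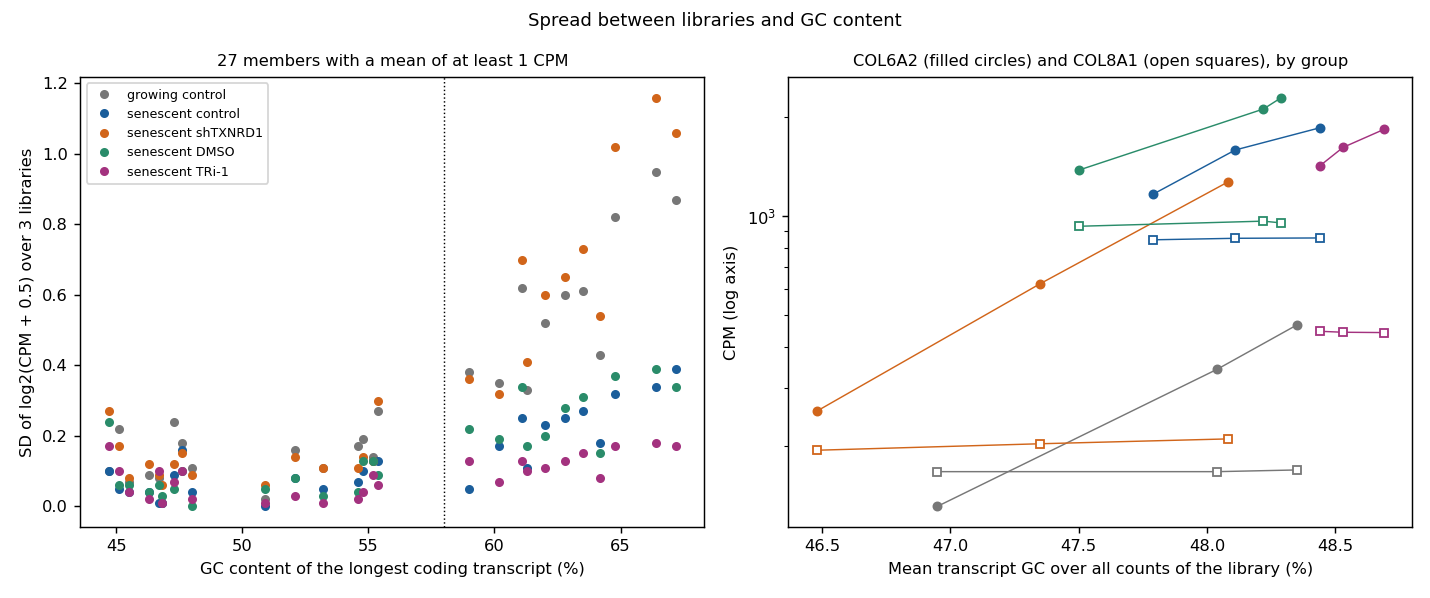
Left, SD of log2(CPM + 0.5) over the 3 libraries of a group against transcript GC content for 27 members, coloured by group, with a dotted line at 58%. Right, level of COL6A2 (filled circles, 66.4% GC) and COL8A1 (open squares, 46.78% GC) against the mean GC content of each library, on a log axis; COL6A2 rises with library GC within every group and COL8A1 is nearly level.

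DMSO was compared with the senescent control to show the background of the solvent. Here 7 members were higher and 3 lower, where 8.36% and 7.87% of all genes were called (16.2% in either direction). The libraries did not overlap for 15 members, against 39.7% of all genes. This comparison shares the DMSO libraries with the TRi-1 comparison and the control libraries with the hairpin and senescence comparisons. COL10A1 (1.47 ± 0.08), COL11A1 (0.97 ± 0.10), COL6A3 (0.77 ± 0.07), COL13A1 (0.61 ± 0.19), COL12A1 (0.45 ± 0.06), COL15A1 (0.45 ± 0.11) and COL8A1 (0.15 ± 0.04) were higher, and COL14A1 (-0.50 ± 0.07), COL5A2 (-0.28 ± 0.06) and COL3A1 (-0.28 ± 0.09) lower. With 1 library left out, the call for COL3A1 was kept only without senescent control replicate 3 (otherwise 0.0634 to 0.144), and those for COL8A1 (0.0728 to 0.106) and COL13A1 (0.103 to 0.14) only without DMSO replicate 1. That for COL15A1 ended without senescent control replicate 2 or 3 or DMSO replicate 3 (0.0539 to 0.0641). The GC correction also called COL22A1 (0.98), COL19A1 (0.67), COL5A3 (0.50) and COL5A1 (0.26) higher and COL16A1 (-0.18) lower. Solvent and any other difference in handling between these groups cannot be told apart.

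Genes that make, trim, degrade or bind collagen were followed as 4 lists. Of 21 tested genes of collagen folding and modification, 8 rose and 5 fell in senescence, 2 rose and 9 fell with the hairpin, and 1 rose and 7 fell with TRi-1. Over all genes, 27.4% were called higher and 29.5% lower in senescence, 25.8% and 24.8% with the hairpin and 7.64% and 12.2% with TRi-1, so the counts of this list in senescence are not a result about it. Its median log2 changes were 0.30, -0.30 and -0.22, against 0.03, -0.01 and 0.01 over all genes. P4HA2, a subunit of the prolyl hydroxylase that stabilises the helix, was 2.87-fold higher in senescence (1.52 ± 0.05), and lower with the hairpin (-0.64 ± 0.05) and TRi-1 (-0.34 ± 0.05). P4HA3, another such subunit, fell 5.81-fold with the hairpin (-2.54 ± 0.19) and 1.99-fold with TRi-1. PLOD2, a lysyl hydroxylase that directs crosslinks, rose 2.65-fold in senescence, and COLGALT2, a collagen galactosyltransferase, fell 10.8-fold. MIA3, which loads procollagen for export from the endoplasmic reticulum, rose with the hairpin (0.73 ± 0.08, adjusted p = 4.38e-06) and fell with TRi-1 (-0.48 ± 0.08, adjusted p = 0.000975). SPARC, an extracellular collagen chaperone, fell with TRi-1 (-0.50 ± 0.05).

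Of 12 tested genes of procollagen processing and crosslinking, 7 rose and 3 fell in senescence, 1 rose and 8 fell with the hairpin, and 3 fell with TRi-1. Over all genes, 56.9% were called in either direction in senescence, 50.7% with the hairpin and 19.9% with TRi-1, and these shares stand beside the counts of the remaining lists too. The median log2 changes were 0.63, -0.99 and -0.31 for the processing list, 1.36, -0.22 and -0.16 for breakdown and 0.56, -0.71 and -0.26 for receptors. TGM2, a transglutaminase, rose 5.73-fold and LOX, the lysyl oxidase, 1.68-fold in senescence. With the hairpin ADAMTS14 and ADAMTS2, proteases that remove the amino-terminal propeptide, fell 11.3-fold and 2.88-fold, and LOXL1 fell 4.39-fold. LOXL3 and LOXL4, oxidases of the same family, fell with TRi-1 (-0.69 ± 0.12 and -0.43 ± 0.08). Of 10 tested genes of collagen breakdown, 8 rose and none was called lower in senescence, led by MMP1, the interstitial collagenase, from 36, 35.1 and 31.8 to 7111, 6727 and 7303 CPM, and by CTSK, a collagen-cleaving cathepsin, which rose 11-fold. MMP1 was not called with either inhibition (-0.21 ± 0.09, interval -0.39 to -0.03, and -0.16 ± 0.09). CTSL, another cathepsin, rose 2.33-fold with the hairpin, and CTSK fell 2.01-fold with TRi-1. Of 11 tested receptors, 6 rose and 1 fell in senescence, 7 fell with the hairpin and 4 with TRi-1. ITGA2, an integrin chain for fibrillar collagen, rose 2.6-fold in senescence and fell 2.57-fold with the hairpin, with -0.16 ± 0.09 for TRi-1, and ITGA1, which prefers type IV collagen, fell with both (-0.95 ± 0.08 and -1.33 ± 0.08).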

How the data were processed

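Gene expression of 15 libraries was taken from the deposited counts, which are whole numbers for each Ensembl identifier. RSEM 1.2.3 and DESeq2 and the builds hg19 and mm10 are listed, without their roles, per the submitters' processing notes. No source used here gives the aligner, the annotation or the strand setting. Of 57736 genes, 52301 received a symbol by identifier. Counts were fitted with edgeR 4.0.16 in R 4.3.3: TMM scaling, filterByExpr, 1 model over 5 groups, quasi-likelihood F test (robust, two-sided, 10 residual degrees of freedom), and Benjamini-Hochberg adjustment over 15994 genes in each comparison, with a call at an adjusted p under 0.05. The fit was tested on simulated data. Levels are TMM-scaled CPM, as the mean and SD of 3 libraries, and errors of changes are SE. Groups of 3 libraries allow no exact permutation p below 0.1, so calls rest on a spread shared between genes. Totals were 18033076 to 28909046 counts. Floors and counting intervals cover counting error only.

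Exon lengths and GC content came from protein-coding transcripts of GENCODE 29 (GRCh38), a build other than the authors', and were found for all 44 members. Members, classes, lists and the rule for named genes were chosen with earlier results of these data known. Every library's value is given for classes with up to 3 tested members, for COL1A1, COL1A2, COL3A1, COL4A1, COL4A2, COL6A1, COL6A2 and COL6A3, and for the called member with the largest change in each class and comparison. Of each pathway list, the 3 genes with the smallest p per comparison were eligible; 1 listed gene, CTAGE5, had no matching symbol. Alternatives were DESeq2 1.42.0, limma-voom 3.58.1, other scalings and filters, a replicate block, a GC correction (a trend of each library on GC content, as offsets), the compared groups alone and each library left out.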

Additional observations from a re-analysis of the deposited data

Results flagged for a closer look

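The effects of the hairpin and of TRi-1 differed, by the test of the difference itself, for 18 of 35 tested collagen genes (hairpin effect minus TRi-1 effect, log2 scale, adjusted p under 0.05). Over all genes tested, 41.7% were called, 22.1% with a positive and 19.5% with a negative difference. Among the tested members the shares were 31.4% and 20%, so the negative share is near the background. The difference was positive for COL14A1 (1.35), COL28A1 (1.32), COL4A6 (1.24), COL4A5 (1.00), COL24A1 (1.00), COL1A2 (0.97), COL11A1 (0.75), COL5A2 (0.70), COL15A1 (0.58), COL12A1 (0.47) and COL3A1 (0.44). It was negative for COL10A1 (-2.14), COL5A1 (-2.04), COL7A1 (-1.81), COL6A1 (-1.31), COL27A1 (-1.16), COL8A1 (-0.98) and COL13A1 (-0.83). The negative differences were -1.10 for COL7A1, -0.63 for COL6A1, -0.56 for COL27A1 and -0.39 for COL13A1 with the GC correction. With 1 library left out, the calls for COL6A1, COL7A1 and COL13A1 ended in 10, 8 and 6 of 12 fits. The 2 comparisons use different controls, the senescent control and DMSO.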

How the results depend on the processing

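No call reversed its direction under any setting run. Members called lower in senescence (4) were 2 with no filter, 2 at a mean CPM of at least 5, 8 with the GC correction, 7 with the GC correction and replicate block, and 2 to 4 with 1 library left out. Members called higher with the hairpin (3) were 5 with the GC correction, 5 with GC correction and block, and 5 without the 3 low-GC libraries (growing replicate 1, shTXNRD1 replicate 3 and DMSO replicate 1), a setting added after seeing the data. Negative differences between the inhibitions (7) were 4 with no filter and 4 to 9 with 1 library left out. Members higher with DMSO (7) were 11 with the GC correction and 4 to 7 with 1 library left out. Ranges with 1 library left out were 18 to 22 higher in senescence, 2 to 4 higher and 15 to 20 lower with the hairpin, 14 to 16 lower with TRi-1, 11 positive differences throughout, and 2 or 3 lower with DMSO. The causes were not tested.

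Correlations of same-numbered deviations from the group means ran from -0.279 to 0.321. These values cannot show whether samples of the same number share a culture or day, since differences in GC content between libraries enter them too. With the replicate block, members lower with the hairpin were 16 (without COL1A1 and COL4A2), lower with TRi-1 16 (without COL22A1 and COL24A1), negative differences 5, and higher and lower with DMSO 5 and 2. The counts in senescence did not move.

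A mean CPM of at least 5 left 25 of 35 members. Counts of members below about 30 per library, as for COL4A4, COL8A2, COL21A1 and COL22A1, limit the size that can be called.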

Other observations

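A few members too low to be tested had uneven counts. COL4A3, the head-to-head neighbour of COL4A4, had 3, 6 and 3 counts in the senescent control, 1, 0 and 0 in shTXNRD1 libraries, 1, 1 and 1 with DMSO and 0 with TRi-1. COL6A5, a rarer type VI chain, had 3, 5 and 4 counts in shTXNRD1 libraries, 0, 1 and 1 in the senescent control, 0 in the growing control and with TRi-1, and 0, 0 and 3 with DMSO. No test was made of either.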
